A study of Mus musculus with 30 samples.

Results

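The matrix around neurons is built of chondroitin sulfate proteoglycans, link proteins and tenascins, and 10 genes for such proteins (Tnc, Tnr, Ncan, Bcan, Vcan, Acan, Hapln1, Ptprz1, Cspg4 and Cspg5) were looked for on a microarray of the developing mouse hippocampus. Members were all probe sets annotated with 1 of these symbols and no other. Of 12488 probe sets on the array, 12 met this rule, and they measured 7 of the 10 genes. They comprised 2 probe sets each for Tnc, Ncan and Bcan, 3 for Ptprz1, and 1 each for Vcan, Acan and Hapln1. Tnr, Cspg4 and Cspg5 were not analysed here, because no probe set carried their symbol alone in the annotation used. Of the 12 probe sets, 9 (6 genes) passed a filter on low values and were tested. The dim probe sets of Tnc and Bcan and the only one of Acan did not pass.

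RNA came from 30 hippocampal pools, each of 2 male pups of 1 genotype bred by crossing C57BL/6 and Nf1 heterozygous mice. Nf1 encodes neurofibromin, which switches Ras off. Pools heterozygous for Nf1 numbered 4 at P10 (postnatal day 10), 4 at P15, 2 at P18, 2 at P20, 2 at P28 and 1 at P32, and wild-type pools numbered 3, 4, 2, 2, 2 and 2 at the same ages. The mutation was present in every cell of the heterozygous animals, so no cell type was targeted, and the labels name no further agent or allele.

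Lecticans (neurocan, brevican, versican and aggrecan, the products of Ncan, Bcan, Vcan and Acan) bind hyaluronan at 1 end and tenascins at the other, and the link protein Hapln1 holds a lectican on hyaluronan. In the brain, neurocan, versican and tenascin-C are known for the loose matrix of the growing tissue, while brevican, aggrecan and link proteins are known for the denser matrix around mature neurons, including perineuronal nets. Astrocytes, neurons and oligodendrocyte precursors all make parts of it. Tenascin-C, the product of Tnc, is a glycoprotein of radial glia and immature astrocytes, and Ptprz1 encodes a receptor phosphatase that carries chondroitin sulfate and binds tenascins, contactin and pleiotrophin.

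The start regions of Tnc, Ncan and Bcan are shown because these 3 genes fell at different times. Each run holds 250 bases before and 50 bases after a RefSeq start on GRCm38.p6, on the minus strand for all 3 genes, at chr4:64046887-64047186 for the downstream of 2 annotated Tnc starts, chr8:70120795-70121094 for Ncan and chr3:88000307-88000606 for Bcan. Capitals mark 3 motifs on either strand, which are TATAA (the core of a TATA box), CCAAT (the CCAAT box) and, as a binding motif of Sp1, GGGCGG.
Tnc: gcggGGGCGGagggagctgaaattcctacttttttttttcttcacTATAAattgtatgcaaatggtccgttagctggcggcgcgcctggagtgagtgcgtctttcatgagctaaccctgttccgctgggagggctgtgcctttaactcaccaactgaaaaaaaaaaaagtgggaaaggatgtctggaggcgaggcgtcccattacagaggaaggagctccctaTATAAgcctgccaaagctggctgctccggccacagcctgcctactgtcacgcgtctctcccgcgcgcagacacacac
Ncan: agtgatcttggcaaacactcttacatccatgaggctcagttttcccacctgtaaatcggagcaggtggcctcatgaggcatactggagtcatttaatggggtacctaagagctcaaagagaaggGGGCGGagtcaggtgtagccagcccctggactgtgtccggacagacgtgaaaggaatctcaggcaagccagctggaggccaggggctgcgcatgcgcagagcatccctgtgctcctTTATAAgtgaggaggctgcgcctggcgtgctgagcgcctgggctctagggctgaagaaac
Bcan: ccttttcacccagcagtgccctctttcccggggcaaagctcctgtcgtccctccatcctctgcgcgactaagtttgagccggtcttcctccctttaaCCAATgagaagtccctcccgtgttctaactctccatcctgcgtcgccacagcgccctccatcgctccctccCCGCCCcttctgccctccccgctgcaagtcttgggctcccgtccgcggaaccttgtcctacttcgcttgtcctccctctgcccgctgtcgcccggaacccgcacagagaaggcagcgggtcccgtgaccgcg
TATAA was found 27 bases before the start of Tnc shown, with another match at -205, and 9 bases before that of Ncan, where TATAA and its reverse complement overlap. Around the upstream Tnc start, which is not shown, TATAA matched at -126 only. It was not in the Bcan window, which held CCAAT at -153 and GGGCGG on the opposite strand at -82. GGGCGG was also present at -246 in the Tnc window shown and at -126 in that of Ncan. Over 32851 mouse promoters of the same length, 24.87% held TATAA, 37.41% CCAAT and 35.66% GGGCGG on either strand, so all 3 motifs are common. These matches describe letters only.

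The deposited intensities had been brought to 1 level by the authors, with array medians between 49.99 and 59.11. Log2 values of libraries of 1 group correlated at 0.952 or more, and at 0.944 in the heterozygous group of P18. In that group library 1b stood apart, with a log2 ratio of the 3' to the 5' Gapdh control of 0.48, against -0.33 to 0.17 in the other 29 libraries. Steps of members that include P18 are therefore given with and without that library. Nf1 itself was below the filter, at 2.15 to 15.04 intensity units in heterozygous and 1.43 to 19.07 in wild-type pools, and did not check the labels. Markers of hippocampal and cortical excitatory neurons were present in every library, with summed intensities of 1899 to 3138 over 7 genes. Markers of choroid plexus varied far more, with sums of 88.2 to 4882 over 3 genes. Sums ran from 1666 to 4646 over 3 blood genes and from 728 to 1102 over 4 markers of thalamus, striatum and cerebellum. Interneuron markers summed to 5469 to 8047 over 8 genes. The part of such differences between pools in the member values was not tested. Unless stated otherwise, tests used limma on log2 intensities with p-values adjusted over all 7453 tested probe sets. The word called stands for an adjusted p below 0.05. P-values measure the spread between pools of animals, which may be technical in part. In bulk RNA, fewer cells of a type and less RNA per cell cannot be told apart. Levels of different probe sets are not compared.

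Between P10 and P28 to P32 most of the measured matrix genes fell in both genotypes. In the heterozygous pools 8 of 9 probe sets (5 of 6 genes) were lower at P28 to P32 than at P10, where 19.5% of all tested probe sets were called lower. In wild type 8 of 9 (5 of 6 genes) were lower, where 20.1% of all were. Tnc, Ncan, Bcan, Vcan and Ptprz1 fell in both, and Hapln1 was called in neither. Over the 9 probe sets the median log2 change was -0.95 in heterozygous and -0.99 in wild-type pools, beside -0.06 and -0.04 over all tested probe sets. In an F test over the 6 ages 8 of the 9 were called, where 50.8% of all were, and Hapln1 was the exception (adjusted p = 0.296). Earlier results of the same arrays already showed the wild-type falls of Tnc, Ncan and Bcan, which are therefore not independent evidence here.

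**Figure D1:**
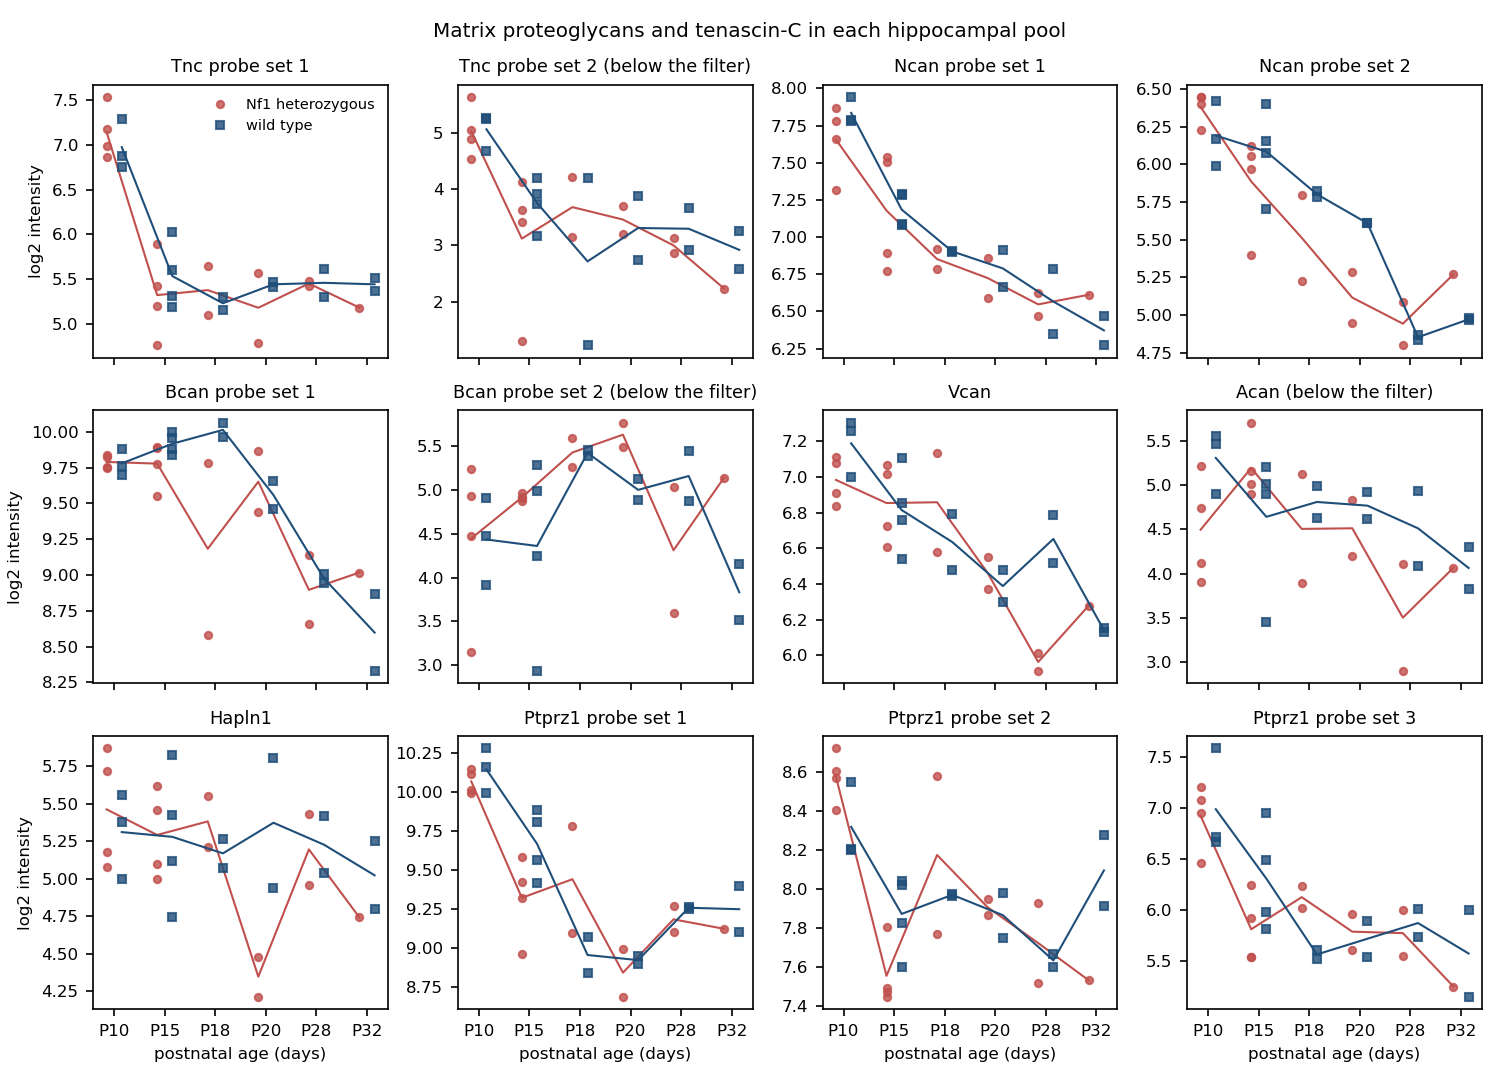
Log2 intensity of the 12 member probe sets (vertical axis) in each pool at 6 postnatal ages (horizontal axis), with heterozygous pools as circles, wild-type pools as squares and lines through the group means. Tnc drops between P10 and P15 and then stays level, Ncan declines over the whole span, and the bright Bcan probe set stays high to P15 and is lowest at P28 and P32.

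Tnc (chromosome 4, 63959785 to 64047015) fell early. Its brighter probe set read 185, 145, 116 and 127 intensity units in the heterozygous P10 pools, then 43.0, 59.7, 36.9 and 27.2 at P15, 34.4 and 50.3 at P18, 27.7 and 47.6 at P20, 44.8 and 42.8 at P28 and 36.3 at P32. In wild type it read 157, 118 and 108 at P10, then 39.9, 36.6, 65.2 and 48.6 at P15, 35.8 and 39.5 at P18, 42.8 and 44.3 at P20, 49.0 and 39.6 at P28 and 45.8 and 41.4 at P32. Every P10 pool was above every later pool, and all later pools lay between 27.2 and 65.2. Averaged over genotypes, Tnc fell by 1.63 on the log2 scale between P10 and P15 (SE 0.17, limma adjusted p = 1.33e-07), to 32.4% of its P10 level. The next intervals brought log2 changes of -0.12 (adjusted p = 0.662) and 0.08 (adjusted p = 0.811), neither called. Without heterozygous P18 library 1b they were -0.19 (adjusted p = 0.505) and 0.14 (adjusted p = 0.599). Over the whole span the change was -1.82 in heterozygous pools (SE 0.26, adjusted p = 6.99e-06) and -1.52 in wild type (SE 0.25, adjusted p = 3.59e-05).

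The second Tnc probe set lay below the filter but moved the same way. It read 8.81, 7.28 and 4.70 in the heterozygous P28 and P32 pools, against 33.4, 50.0, 23.2 and 29.8 at P10. In wild type it read 12.7, 7.60, 5.99 and 9.59 at P28 and P32, against 38.2, 25.7 and 38.5 at P10. The early and late pools did not overlap in either genotype. In a fit without the filter its log2 change over the span was -2.42 in heterozygous pools (adjusted p = 0.00548) and -1.96 in wild type (adjusted p = 0.0189), and between P10 and P15 it was -1.61 (adjusted p = 0.00729). Its group means correlated with those of the brighter probe set at 0.90 over the 12 groups.

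Ncan (chromosome 8, 70093085 to 70120863) declined through the whole span. The brighter probe set read 233, 202, 219.6 and 159.7 in the heterozygous P10 pools, then 186, 182, 119 and 109 at P15, 121 and 110.1 at P18, 116 and 96.3 at P20, 88.6 and 98.7 at P28 and 97.8 at P32. In wild type it read 246, 219.6 and 220.5 at P10, 136, 135, 156 and 156 at P15, 119 and 120.2 at P18, 102 and 120.4 at P20, 110.3 and 81.4 at P28 and 77.3 and 88.7 at P32. All P28 and P32 pools were below all P10 pools, and wild-type pools of P15 also lay apart from those of P10 and of P18, while the other neighbouring ages overlapped. Its steps were -0.56 between P10 and P15 (SE 0.11, adjusted p = 0.000689), -0.36 to P18 and P20 (SE 0.11, adjusted p = 0.0305) and -0.29 to P28 and P32 (SE 0.12, adjusted p = 0.0816, not called). The middle step was no longer called when 1 of 8 libraries was left out (heterozygous P15 1c or 1d, P18 1b or P20 1b, wild-type P15 2c or 2d, P18 1c or P20 2a), with -0.35 and adjusted p = 0.0562 without heterozygous P18 1b. The last step was -0.31 without that library (adjusted p = 0.064). Without wild-type P28 1a the last step was called (-0.35, adjusted p = 0.0492).

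The second Ncan probe set also declined. It read 27.9 to 38.6 in heterozygous P28 and P32 pools, against 74.8 to 87.3 at P10, and 28.6 to 31.5 in wild type, against 63.4 to 85.6 at P10. The early and late pools did not overlap. Its 3 steps were -0.30 (adjusted p = 0.0943, not called), -0.48 (adjusted p = 0.0152) and -0.50 (adjusted p = 0.0101), and without heterozygous P18 library 1b the later ones were -0.40 (adjusted p = 0.0409) and -0.57 (adjusted p = 0.00234). Which steps were called depended on the model: with the Gapdh ratio as a covariate and with array weights the first was called (-0.44, adjusted p = 0.0206, and -0.35, adjusted p = 0.0316) and the middle one was not (adjusted p = 0.0536 and 0.0592). Over the span it fell (log2 change -1.27 in heterozygous pools and -1.28 in wild type), and the first probe set fell as well (-1.08 in heterozygous pools and -1.37 in wild type). The group means of the 2 probe sets correlated at 0.92 over the 12 groups.

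Bcan (chromosome 3, 87987531 to 88002175) held its level to P15 and fell late. The bright probe set read 863, 905, 859 and 915 in the heterozygous P10 pools, then 949, 951, 751 and 877 at P15, 881 and 383 at P18, 695 and 931 at P20, 403 and 563 at P28 and 518 at P32. In wild type it read 942, 868 and 831 at P10, 993, 1021, 916 and 941 at P15, 998 and 1071 at P18, 705 and 806 at P20, 515 and 491 at P28 and 322 and 466 at P32. Every P28 and P32 pool was below every P10, P15 and P20 pool, and the value of 383 belonged to heterozygous P18 library 1b. Between P10 and P15 its log2 change was 0.06 (95% confidence interval -0.19 to 0.32). The step to P18 and P20 was -0.25 (adjusted p = 0.165, not called), and the step to P28 and P32 was -0.73 (SE 0.13, adjusted p = 0.000264). Without library 1b these steps were -0.10 and -0.88 (adjusted p = 2.84e-07 for the last), and without library 1a the first of them was -0.40 and called (adjusted p = 0.00199). Over the span it fell to 56.1% in heterozygous and 50.2% in wild-type pools.

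The second Bcan probe set was dim and did not follow the first. It read 12.1, 32.7 and 35.3 at P28 and P32 and 8.85, 22.3, 37.7 and 30.5 at P10 in heterozygous pools, and its late and early pools overlapped in both genotypes. Its log2 change over the span was 0.28 in heterozygous pools (adjusted p = 0.728) and 0.06 in wild type (adjusted p = 0.948) in a fit without the filter, and its group means correlated with those of the bright probe set at 0.26. The values given for Bcan elsewhere are those of the bright probe set.

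Among the other lecticans, Vcan (chromosome 13, 89655309 to 89743027), whose product is the large lectican of immature matrix, fell over the span. It read 60.3 to 77.7 in the heterozygous P28 and P32 pools, against 114 to 138 at P10, and 70.1 to 111 in wild type, against 128 to 158 at P10. The log2 change over the span was -0.86 in heterozygous pools (SE 0.16, adjusted p = 0.00019) and -0.79 in wild type (SE 0.15, adjusted p = 0.000285). Its steps averaged over genotypes were -0.25, -0.25 and -0.33, and the last alone was called (adjusted p = 0.0349). Within heterozygous pools they were -0.13, -0.19 and -0.54, and in wild type -0.37, -0.30 and -0.11, none of them called, nor was the difference between genotypes in any step (adjusted p = 0.201 to 0.886). Without heterozygous P18 library 1b the middle and last steps in heterozygous pools were -0.33 and -0.40. The average call was lost with no filter (adjusted p = 0.0565), with the block of title codes (adjusted p = 0.317) and when 1 of 9 libraries was left out (heterozygous P18 1b, P20 1b, P28 1a or 1b, wild-type P18 1c, P20 2b, P28 1b, P32 1a or 1b), and without heterozygous P18 1b the step was -0.26 (adjusted p = 0.0698). The first step was called without wild-type P15 2d (-0.30, adjusted p = 0.0398), and the middle one without heterozygous P18 1b (-0.32, adjusted p = 0.0412).

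Acan (chromosome 7, 79053226 to 79115099), whose product is a main lectican of perineuronal nets, was below the filter, at 7.48 to 52.2 intensity units. It read 17.2, 7.48 and 16.8 in the heterozygous P28 and P32 pools, against 26.8, 37.1, 17.5 and 15.002 at P10. In wild type it read 30.6, 17.1, 14.2 and 19.8, against 29.98, 44.0 and 47.1 at P10. Late and early pools overlapped in both genotypes. In a fit without the filter the change was -0.71 in heterozygous pools (adjusted p = 0.257) and -1.02 in wild type (adjusted p = 0.0844), neither called.

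The link protein gene Hapln1 (chromosome 13, 89540529 to 89611832) was tested and not called over the span. It read 26.8 to 43.2 in the heterozygous P28 and P32 pools, against 33.8 to 58.4 at P10, and 27.8 to 42.8 in wild type, against 31.9 to 47.2 at P10, with overlap in both genotypes. The log2 change was -0.49 in heterozygous pools (95% confidence interval -1.08 to 0.09) and -0.19 in wild type (-0.75 to 0.38). The interval in heterozygous pools includes a fall as large as that of Bcan there.

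Ptprz1 (chromosome 6, 22875315 to 23052916), the receptor among the measured genes, was lower at every later age than at P10 by its brightest probe set. Its brightest probe set read 1035, 1019, 1113 and 1137 in the heterozygous P10 pools, 767, 686, 640.0 and 498 at P15, 547 and 883 at P18, 510.3 and 412 at P20, 616 and 549 at P28 and 557 at P32. In wild type it read 1020.2, 1148 and 1245 at P10, 757, 685, 895 and 947 at P15, 457 and 538 at P18, 476 and 494 at P20, 609 and 615 at P28 and 674 and 549 at P32. All P10 pools were above all later ones, and the value of 883 again belonged to heterozygous P18 library 1b. Its steps were -0.61 (adjusted p = 7.89e-05), -0.46 (adjusted p = 0.00517) and 0.16 (adjusted p = 0.289, not called). Without library 1b the middle step was -0.54 (adjusted p = 0.00149), and the last was 0.25 and called (adjusted p = 0.0498). The genotypes differed in which step was called: between P10 and P15 the change was -0.75 in heterozygous pools (adjusted p = 0.0004) and -0.48 in wild type (adjusted p = 0.0586), and from there to P18 and P20 it was -0.18 in heterozygous pools (adjusted p = 0.374) and -0.73 in wild type (adjusted p = 0.0126). The differences between genotypes in these steps were not called (adjusted p = 0.848 and 0.0993). Without library 1b the heterozygous change from P15 to P18 and P20 was -0.35, and its difference from wild type was 0.38.

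Averaged over genotypes, the other probe sets of Ptprz1 were called in the first step. The second changed by -0.73 between P10 and P15 (adjusted p = 1.91e-05) and the third by -0.90 (adjusted p = 0.000809), and neither was called in the later steps. The third changed by 0.14 in heterozygous pools and -0.67 in wild type in the middle step, after -1.11 in heterozygous pools and -0.68 in wild type in the first. Without library 1b its middle step in heterozygous pools was 0.09. In the middle and last steps, without library 1b, the second changed by 0.16 and -0.13 and the third by -0.29 and -0.15, none called. Without heterozygous P18 library 1a the second was called in both, higher in the middle one (0.37, adjusted p = 0.00588) and lower in the last (-0.34, adjusted p = 0.0196). Over the span the brightest fell (log2 change -0.92 in heterozygous pools and -0.89 in wild type), and so did the third (-1.41 in heterozygous pools and -1.26 in wild type). The second fell (log2 change -0.95 in heterozygous pools, adjusted p = 8.92e-05, and -0.45 in wild type, adjusted p = 0.0268), and in wild type its late pools (194 to 311) overlapped the P10 pools (294 to 376). The wild-type call was lost without P10 library 2a, P28 1a or P32 1a (adjusted p = 0.0628 to 0.152). The array design marks the brightest with f, for probes shared by similar sequences, and the third with r, for probes chosen under relaxed rules. Group means of the brightest probe set correlated with those of the second at 0.65 and of the third at 0.91. The mark f is also carried by the second probe sets of Tnc and Bcan.

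**Figure D2:**
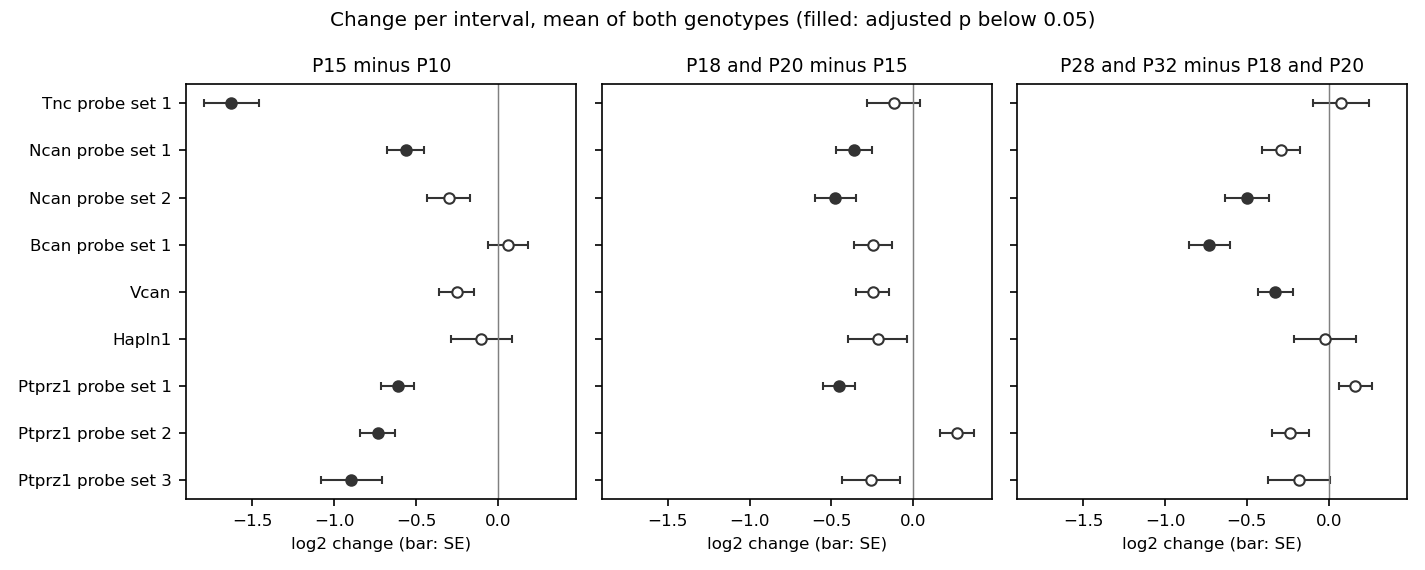
Log2 change of the 9 tested probe sets (rows) in 3 successive intervals (panels, horizontal axis), averaged over both genotypes, with bars of 1 SE and filled points for an adjusted p below 0.05. Tnc and the 3 Ptprz1 probe sets change most in the first interval, and Bcan in the last.

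By interval, 5 of 9 probe sets (Tnc, Ncan probe set 1 and the 3 of Ptprz1) were called lower between P10 and P15, where 13.4% of all tested probe sets were. Between P15 and the mean of P18 and P20, 3 were lower (both of Ncan and the brightest of Ptprz1), where 6.28% of all were. Between P18 to P20 and P28 to P32, 3 were lower (Bcan, Vcan and Ncan probe set 2), where 10.6% of all were. None was called higher in these averages with all libraries. Which members were called in the 2 later intervals depended on the heterozygous P18 library left out. The middle step of Bcan was -0.25 with all libraries, -0.10 without 1b and -0.40 without 1a. In the last interval Vcan changed by -0.33, -0.26 and -0.40 in the same order, and the brightest of Ptprz1 by 0.16, 0.25 and 0.08. Counts over all tested probe sets also varied when 1 library was left out, as given in the last section.

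The difference in timing was tested on the log2 ratio of 2 genes within a library, which removes the level of the array. Each gene was represented by its brightest probe set, ages were exchanged within genotype in an exact two-sided permutation test, and 9 tests were adjusted together. Ncan probe set 2 was not used, although its steps (-0.30, not called, then -0.48 and -0.50) were unlike those of probe set 1. Differences that involve Ncan therefore hold for its probe set 1 only. These tests were chosen after the values were seen. Between P10 and P15 the change of Tnc was below that of Bcan (a difference of -1.69, exact permutation p = 0.000408, the smallest possible, adjusted p = 0.00367). In that interval the difference was -1.06 for Tnc minus Ncan and -0.63 for Ncan minus Bcan (exact permutation test, adjusted p = 0.00367 for each). Leaving out any 1 library kept these 3 adjusted p-values at 0.0129 or below. The log2 ratio of Tnc to Bcan ran from -5.01 to -3.81 in the 8 pools of P15 and from -2.94 to -2.22 in the 7 of P10, with no overlap.

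In the last interval the differences ran the other way. Tnc minus Bcan changed by 0.84 (exact permutation test, adjusted p = 0.0321), and without 1 library the adjusted p ranged from 0.00257 to 0.103, with the call lost for 8 of the 30 (heterozygous P18 1a, P20 1a or 1b, P28 1a or 1b, wild-type P18 1c or 1d, P32 1a). Ncan minus Bcan changed by 0.44 and Tnc minus Ncan by 0.40 (exact permutation test, adjusted p = 0.068 for each). Without heterozygous P18 library 1b both were called, at 0.58 for Ncan minus Bcan and 0.46 for Tnc minus Ncan, Tnc minus Bcan stood at 1.04, and Tnc minus Ncan was also called without P20 1b (0.48). In the middle interval none of the 3 differences was called (adjusted p = 0.205 to 0.682), nor without that library (exact permutation test, adjusted p = 0.11 to 0.696).

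**Figure D3:**
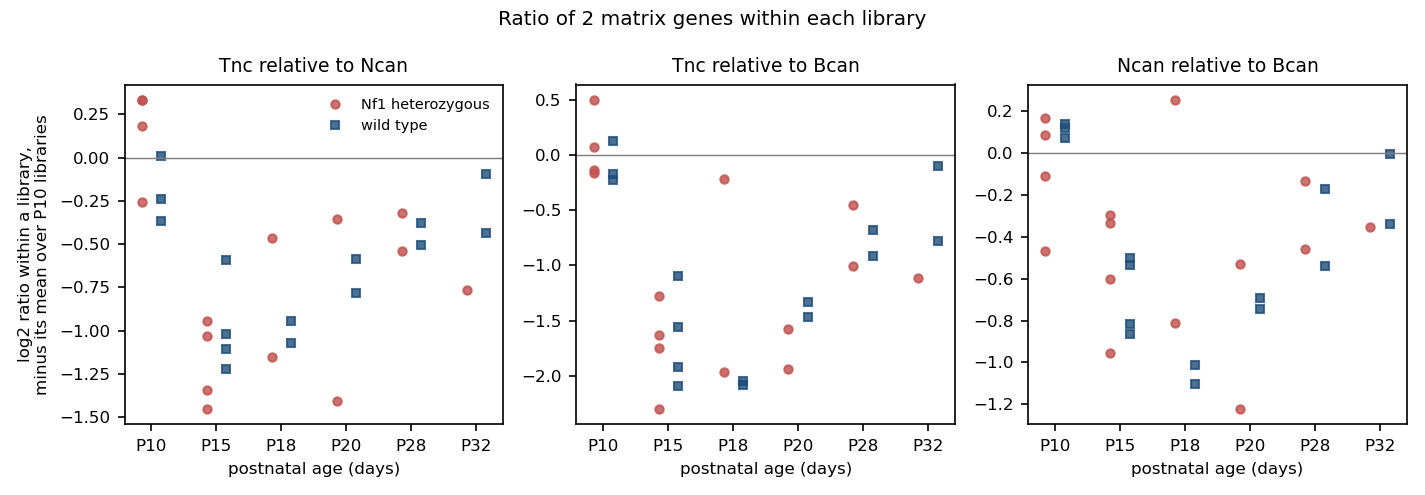
Log2 ratio of 2 matrix genes within each library, minus its mean over the P10 libraries (vertical axis), by postnatal age (horizontal axis), with heterozygous pools as circles and wild-type pools as squares. Each gene is shown by its brightest probe set. Ratios of Tnc to the other genes drop at P15, and both ratios to Bcan are higher again at P28 and P32 than at P15.

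The genotypes did not differ detectably in the size of the fall. For the difference in change over the span, heterozygous minus wild type, 0 of 9 member probe sets were called by limma, as were 0% of all tested, with 1 of the 9 at an unadjusted p below 0.05. That was Ptprz1 probe set 2, with a difference of -0.49 (95% confidence interval -0.97 to -0.02, adjusted p = 0.7). For Tnc the difference was -0.30 (-1.03 to 0.43), for Ncan probe set 1 0.29 (-0.21 to 0.79) and for Bcan 0.16 (-0.37 to 0.69). All 3 intervals include 0, and their width sets what could be detected.

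**Figure D4:**
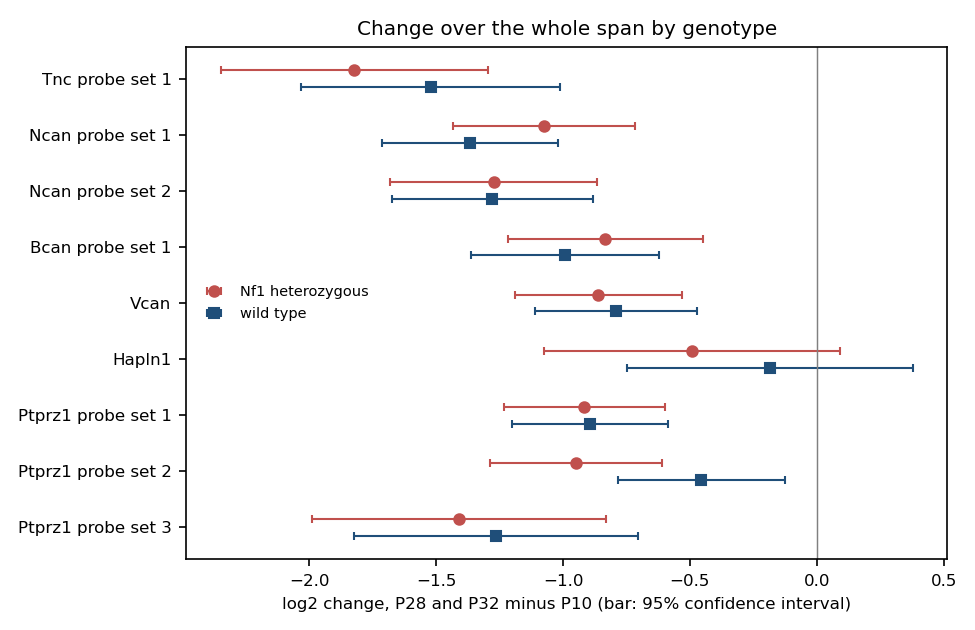
Log2 change of the 9 tested probe sets (rows) between P10 and the mean of P28 and P32 (horizontal axis), in heterozygous (circles) and wild-type pools (squares), with 95% confidence intervals. The intervals of the genotypes overlap for every probe set, and those of Hapln1 include 0.

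Over all ages together, limma called 0 of the 9 for genotype, and 0% of all tested, with 0 of the 9 at an unadjusted p below 0.05. Their log2 differences, heterozygous minus wild type, lay between -0.11 and -0.03. In the F test of genotype by age 0 of the 9 were called, where 6.49% of all were, with 3 at an unadjusted p below 0.05. That member count changed when heterozygous P18 library 1a was left out, which leaves library 1b alone in its group, and not when 1b was. Counts over all tested probe sets also varied widely when 1 library was left out, as given in the last section.

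At single ages the calls were few. At P10 0 members were called for genotype (0.0403% of all tested), at P15 0 (0%), at P20 0 (2.27%), at P28 0 (0.0134%) and at P32 0 (0.0537%). At P18 1 was called, where 22.8% of all tested were. This was Bcan, at 881 and 383 in heterozygous pools and 998 and 1071 in wild type, a log2 difference of -0.83 (SE 0.24, adjusted p = 0.0153). It rested on library 1b: without it the difference was -0.23 (adjusted p = 0.545), and after adding the Gapdh ratio to the model it was -0.22 (adjusted p = 0.706). The number of all probe sets called at P18 was 264 without library 1b, against 1700 with it. The call was also lost without wild-type P18 library 1c (adjusted p = 0.0541) or 1d (adjusted p = 0.101).

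Among members not called at single ages, Hapln1 at P20 read 22.3 and 18.6 in heterozygous pools and 56.0 and 30.7 in wild type, a log2 difference of -1.03 (unadjusted p = 0.00838 and adjusted p = 0.129 in limma). Vcan at P28 read 64.6 and 60.3 in heterozygous pools and 111 and 91.5 in wild type, a difference of -0.69 (unadjusted p = 0.00234, adjusted p = 0.647 in limma). The 2 genotypes did not overlap in either case, but with 2 pools per genotype this can readily occur without a difference. Both cases were picked from all members and ages, and the share of all tested probe sets without overlap was not computed.

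Calls within 1 genotype were uneven, but with all libraries the differences between the genotypes were not called for any member. Between P10 and P15, 6 of the 9 were lower in heterozygous pools, where 11.0% of all tested were, and 2 (Tnc and Ncan probe set 1) in wild type, where 2.55% were. The difference of that step was called for 0 of the 9, and 0% of all tested, with 1 of the 9 at an unadjusted p below 0.05. From P15 to P18 and P20, 1 was lower in heterozygous pools, where 9.06% of all were. This was Ncan probe set 2, at -0.57, and at -0.43 without heterozygous P18 library 1b. In the same pools 1 was higher (Ptprz1 probe set 2, 0.49, adjusted p = 0.0238), where 9.66% were. In wild type 1 was lower (the brightest of Ptprz1), where 0.389% were. The difference was called for 0, where 4.76% were. In heterozygous pools the rise of Ptprz1 probe set 2 was smaller without heterozygous P18 library 1b, at 0.28. Between P18 to P20 and P28 to P32, 0 were lower in heterozygous pools, where 1.37% of all were, and 2 (Bcan at -0.9996 and Ncan probe set 2 at -0.79) in wild type, where 15.3% were. The difference of that step was called for 0 of the 9, where 12.1% of all were. The absence of a call for Bcan in heterozygous pools rested on library 1b: its last step was -0.46 with that library (adjusted p = 0.186) and -0.76 without it (adjusted p = 0.00234). The difference between genotypes in the later steps also moved with the P18 library left out. For Bcan in the last step it was 0.54 with all libraries, 0.24 without 1b and 0.84 without 1a, which leaves 1b alone. For the brightest probe set of Ptprz1 in the middle step it was 0.55, 0.38 and 0.72 in the same order.

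Other genes of the matrix were counted in 4 lists over the span, read against 17.0% of all tested probe sets higher and 19.5% lower in heterozygous pools, and 18.03% higher and 20.1% lower in wild type. Of 18 tested ligands and receptors of these proteoglycans, 2 were higher and 5 lower in heterozygous pools, and 2 were higher and 7 lower in wild type, with medians of -0.22 and -0.26. L1cam, an adhesion molecule of growing axons that neurocan binds, fell (log2 change -2.39 in heterozygous pools and -1.74 in wild type). Ncam1, another adhesion molecule bound by neurocan, fell (log2 change -1.32 in heterozygous pools and -1.06 in wild type). Mdk, the growth factor midkine that binds the Ptprz1 product, fell (log2 change -1.04 in heterozygous pools and -1.16 in wild type). Pdgfra, a receptor of oligodendrocyte precursors, fell (log2 change -1.22 in heterozygous pools and -0.88 in wild type).

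Of 11 tested enzymes of chondroitin sulfate and hyaluronan, 2 were higher and 4 lower in heterozygous pools, and 2 were higher and 1 lower in wild type, with medians of -0.03 and -0.14. Papss2 and Papss1 make the sulfate donor for the chains. Papss2 rose (log2 change 1.29 in heterozygous pools and 0.80 in wild type), and Papss1 fell (log2 change -0.59 in heterozygous pools and -0.42 in wild type). Idua, a lysosomal enzyme that cuts dermatan and heparan sulfate, rose (log2 change 0.90 in heterozygous pools and 0.71 in wild type).

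Of 11 tested matrix proteases and inhibitors, 3 were higher and 3 lower in heterozygous pools, and 2 were higher and 3 lower in wild type, with medians of 0.01 in both. Ctss, a cathepsin of microglia, rose (log2 change 1.27 in heterozygous pools and 1.22 in wild type). Inhibitors of metalloproteases went both ways: Timp2 fell (-1.04 in each genotype), and Timp3 rose (log2 change 0.52 in heterozygous pools and 0.63 in wild type). Plg, the plasminogen gene, fell (log2 change -0.80 in heterozygous pools and -0.77 in wild type).

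Of 27 other tested proteoglycans and matrix glycoproteins, 8 were higher and 7 lower in heterozygous pools, and 9 were higher and 9 lower in wild type, with medians of -0.08 and -0.14. Bgn (biglycan, a small proteoglycan of connective tissue) fell (log2 change -0.82 in heterozygous pools and -1.18 in wild type). Reln (reelin, a guidance protein of migrating neurons) fell (log2 change -1.05 in heterozygous pools and -0.96 in wild type), and Fbln1 (fibulin-1) fell (log2 change -0.65 in heterozygous pools and -0.95 in wild type). Itih3, whose product is attached to hyaluronan, rose (log2 change 1.62 in heterozygous pools and 1.18 in wild type).

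Marker genes of several cell types moved over the same span, and their part in the fall of the matrix genes was not tested. Their counts are read against the same shares of all tested probe sets as the lists above. All 6 tested oligodendrocyte markers were higher in each genotype, with median log2 changes of 4.47 in heterozygous pools and 3.93 in wild type. The sum over 7 such markers was 8716 to 9173 in heterozygous P28 and P32 pools, against 654 to 828 at P10, and 7432 to 8522 in wild type, against 928 to 1042 at P10. Of 8 markers of immature neurons, 8 were lower in heterozygous pools and 7 in wild type. Their summed intensity was 6421 to 7355 in heterozygous P28 and P32 pools, against 12954 to 14081 at P10, and 7379 to 8283 in wild type, against 12336 to 14093 at P10. Of 9 astrocyte markers 6 were higher and 2 lower in heterozygous pools, and 6 were higher and 1 lower in wild type, with summed intensities of 8598 to 8880 in heterozygous pools, against 7140.4 to 7862 at P10, and 8959 to 10441 in wild type, against 7386 to 7447 at P10. Of the 2 tested markers of oligodendrocyte precursors, Pdgfra fell and Sox10 rose, and their sum was 532 to 670.2 in heterozygous pools, against 968 to 1075 at P10, and 539 to 612 in wild type, against 738 to 941 at P10. Of 9 markers of neurons in general 3 were higher and 1 lower in each genotype, with sums of 11277 to 11449 in heterozygous pools, against 9743 to 10706 at P10, and 11024 to 12184 in wild type, against 9268 to 10078 at P10. Of 8 tested microglial markers 3 were higher and 1 lower in heterozygous pools, and 2 were higher and 1 lower in wild type. Their sum was 2221 to 2469 in heterozygous pools, against 1575 to 1817 at P10, and 1977 to 2366 in wild type, against 1463 to 1889 at P10. Of 8 markers of mural cells and meningeal fibroblasts, 5 were lower in heterozygous pools and 3 in wild type, and of 6 endothelial markers 2 were lower in heterozygous pools and 3 in wild type. Of all deposited values, 0 were at or below 0 and 1.68% were under 1, so a value above 0 does not by itself show that a marker was detected.

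Genes with the most similar course were sought among 6762 tested probe sets with 1 symbol, by Pearson's correlation over the 12 group means. These points share arrays and the common change with age. Because genes were picked for likeness over these same points, steps like those of the member follow from the selection. Nearest to Tnc were Tspan6 at 0.95, a tetraspanin, Slc38a5 at 0.95, an amino acid transporter, and Cdca8 at 0.95, a mitotic protein, and their steps between P10 and P15 were -0.93, -0.61 and -0.77. Nearest to Ncan were Plxnd1 at 0.99, a semaphorin receptor, Midn at 0.98 and Sec61a1 at 0.97, a subunit of the channel into the endoplasmic reticulum. Nearest to Bcan were Uqcrq at 0.98, a subunit of respiratory complex III, Dolpp1 at 0.98 and Abcb9 at 0.97, a lysosomal transporter. Those of Bcan, by this selection, had small changes between P10 and P15 (0.03, -0.08 and 0.01, none called) and fell in the last interval (-0.42, -0.49 and -0.81). Among the members themselves, group means of Tnc and Bcan correlated at 0.31, of Tnc and Ncan at 0.82 and of Ncan and Bcan at 0.73, each by its brightest probe set. With Ncan probe set 2 the order was the reverse, at 0.65 with Tnc and 0.81 with Bcan.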

How the data were processed

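Intensities of 12488 probe sets (Affymetrix MG-U74Av2) in 30 libraries, 15 heterozygous and 15 wild type, were used as deposited by the authors. Which software computed them is not stated in the labels. Array means trimmed by 2% at each end lay at 150.08 to 150.09, and the values were not normalized again. Before taking log2, 1.68% of values, those under 1, were raised to 1. Tests left out 66 control probe sets and, ranked by mean log2, the dimmest 40% of the rest (below 4.95). Symbols and coordinates came from the platform annotation and RefSeq (GRCm38.p6, gene coordinates).

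Limma 3.58.1 (R 4.3.3) was fitted to all 30 libraries with 1 mean per genotype and age and an intensity trend, and checked on simulated data. The F test over the ages and the test of genotype over all ages instead used a model of age plus genotype on the same libraries. P-values were two-sided with Benjamini-Hochberg adjustment over all 7453 tested probe sets. In the fit without the filter the adjustment was over 12422 probe sets, and with the dimmest 60% left out over 4969. The 9 permutation tests of timing were adjusted among themselves. The change over the span averages the groups of P28 and P32 and subtracts that of P10. Members, lists and tests were chosen with earlier results of these data known. All member probe sets were named, with the 3 most alike genes for each of 3 members and, per list, up to 4 called genes of greatest change in wild type. Same-numbered libraries were not paired: their deviations correlated at -0.18 to 0.13. The number of arrays limits precision.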

Additional observations from a re-analysis of the deposited data

Results flagged for a closer look

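Within groups of 4 libraries, a library was singled out when its gap to the nearest other exceeded 0.829 of the group's range, a limit that chance passes in about 1 in 20 groups. Of 36 groups tested, 2 did. Acan read 10.96 intensity units in wild-type P15 library 2d, against 29.96 to 36.9 in the other libraries of that group. Ptprz1 probe set 2 read 224 in heterozygous P15 library 1c, against 175 to 180.1 in the others. The causes were not tested.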

How the results depend on the processing

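No called member change turned its direction under the alternatives run. When the dimmest 60% of probe sets were dropped, 5 member probe sets remained to be tested, and calls numbered 5 for age, 5 for the span in heterozygous pools, 5 in wild type and 3 between P10 and P15. With the title code as a replicate block, 0 were called between P15 and P18 to P20 and 1 in the last interval, and array weights left 1 between P15 and P18 to P20. The codes did not pair the libraries, and they went partly with age. Codes 1c, 1d, 2c and 2d occurred only at P15 and in wild type at P18, and all P28 and P32 libraries were 1a or 1b. The block can therefore take up part of a change with age. With the block Ptprz1 probe set 2 was called neither over the span in wild type (-0.28, adjusted p = 0.251) nor between P10 and P15 (-0.41, adjusted p = 0.253). Array weights and the Gapdh covariate added Ncan probe set 2 between P10 and P15, and array weights also added Vcan there.

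Leaving out 1 library gave 8 to 9 calls for age, 7 to 8 for the span in wild type, 8 in heterozygous pools, 5 to 6 between P10 and P15, 2 to 5 in the middle and 2 to 4 in the last interval, 0 to 4 for genotype by age, and 0 for the difference in span and for genotype over all ages, at P10 and at P15. The 5 in the middle and the 4 for genotype by age came without heterozygous P18 library 1a, and the cause was not tested. Leaving out both P18 heterozygous libraries, chosen after seeing the data, gave 4 and 3 in the middle and last intervals. The Gapdh covariate removed both Ncan calls in the middle interval (-0.34 for Ncan probe set 1 and -0.38 for Ncan probe set 2). In the last interval quantile normalization removed the call of Vcan (-0.23), while 2 differences in timing were called there with log2(value + 32) and after quantile normalization: Ncan minus Bcan (0.48 and 0.55) and Tnc minus Ncan (0.28 and 0.41).

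Over all tested probe sets the block gave 618, 83 and 518 calls in the 3 intervals, against 1932, 1012 and 1421, and 57 for genotype by age, against 484. The count for genotype by age was 22 with the Gapdh covariate, 284 with array weights and 110 without both P18 libraries. Array weights gave 527 in the middle interval. Leaving out 1 library gave 95 to 1818 for genotype by age, 616 to 1694 in the middle and 978 to 2079 in the last interval. Genotype at P10 varied from 0 to 10 calls, against 3, at P15 it had 81 with the block and 1 with the Gapdh covariate, against 0, and the difference in span had 0 to 4. Dim probe sets, such as those of Acan and the second of Bcan, limit what was measured.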
